A study of Mus musculus with 69 samples.

Results

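The transcription factors examined here are T (Brachyury), Eomes, Mixl1, Gsc and Mesp1, 5 genes of the primitive streak, taken by symbol from the 55367 genes of a table of bulk RNA sequencing counts and followed through all its 69 libraries. The libraries come from E14tg2A mouse embryonic stem (mES) cells and from mosaic gastruloids, aggregates that develop in N2B27 medium with a pulse of the Wnt agonist ChIR between 48 and 72 h. Each line is 1 clone. WT–mCherry carries H2B–mCherry under the EF1α promoter, WT–emiRFP carries H2B–emiRFP670 under the CAG promoter, and p53KO–emiRFP is a daughter subclone of WT–emiRFP with a frameshift in Trp53, obtained by selection with Nutlin-3a. WT + WT gastruloids were started from 150 WT–mCherry and 150 WT–emiRFP cells, and WT + p53KO gastruloids from 150 WT–mCherry and 25 p53KO–emiRFP cells. Cells of each colour were sorted at 48, 72, 96, 120 and 144 h, and the 3 clones were also sequenced as mES cells at 0 h, kept in serum with LIF. Each of the 23 groups had 3 replicates from separate experiments. The purity of the sorted cells was not checked after sorting. Since the p53KO cells are 1 clone, seeded at a lower number than the WT–emiRFP cells beside the same WT–mCherry partner, the genotype, the clone and the seeding cannot be told apart in the comparison of these cells.

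The primitive streak is the site at which epiblast cells become mesoderm and endoderm. Wnt and Nodal signals switch on T-box factors there. T is needed for posterior mesoderm and the notochord, and Eomes for the anterior streak, definitive endoderm and early mesoderm. Mixl1 and Gsc are homeobox factors of the streak, Gsc marking its anterior end and the organizer, and Mesp1 is a bHLH factor of nascent mesoderm and of cardiovascular progenitors. In gastruloids a Wnt pulse is the usual trigger of T expression.

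Library totals ranged from 26722541 to 72981570 counts. Trp53 was at 1506 to 2589 normalized counts (counts divided by size factors) in the p53KO–emiRFP libraries and at 13902 to 27511 in all other libraries, as the labels have it. For T, 1 library stood apart: replicate 2 of the WT–mCherry mES cells had 286 normalized counts and the other replicates 43.9 and 47.6. H2bc14, an H2B gene whose counts were at 9353 to 10517 in WT–emiRFP mES cells and at 6.20 to 8.21 in WT–mCherry mES cells, was taken as a measure of emiRFP RNA in the libraries of sorted WT–mCherry cells, as was H2bc21, at 493 to 649 and 8.36 to 29.0 in the same clones. That these counts come from the H2B part of the reporter is inferred from their levels alone, and all subtracted values rest on it. They also rest on the mean of the WT–mCherry mES libraries as the level without emiRFP RNA at all times. Any later rise of the cells' own H2bc14 or H2bc21 RNA would be counted as emiRFP RNA, which was not tested. Bulk libraries cannot tell fewer cells of a type from less RNA per cell.

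The genes lie on 5 chromosomes of GRCm38: T at chr17:8434423-8442496 and Eomes at chr9:118478212-118486132 on the plus strand, and Mixl1 at chr1:180693043-180697034, Gsc at chr12:104471209-104473330 and Mesp1 at chr7:79792241-79793788 on the minus strand. Gm33460 overlaps Eomes on the other strand, and since the strand setting of the counting is not stated, reads of this pair cannot be told apart. RefSeq promoters (GRCm38.p6, 250 bases before to 50 after the start site) were found for 4 of the 5 genes, all but Mixl1. They are shown because the Wnt effectors TCF and LEF and the T-box factors among the members bind short motifs that can be read in them. Capitals mark the TCF/LEF letters CTTTGA or CTTTGT and the T-box letters AGGTGT on either strand.
T, chr17:8434173-8434472, plus strand: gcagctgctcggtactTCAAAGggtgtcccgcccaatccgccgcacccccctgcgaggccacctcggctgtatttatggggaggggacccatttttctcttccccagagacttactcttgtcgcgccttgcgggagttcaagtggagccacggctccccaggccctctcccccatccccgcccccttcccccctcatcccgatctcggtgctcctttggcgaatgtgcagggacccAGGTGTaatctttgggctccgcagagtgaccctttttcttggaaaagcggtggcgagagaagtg
Eomes, chr9:118477939-118478238, plus strand: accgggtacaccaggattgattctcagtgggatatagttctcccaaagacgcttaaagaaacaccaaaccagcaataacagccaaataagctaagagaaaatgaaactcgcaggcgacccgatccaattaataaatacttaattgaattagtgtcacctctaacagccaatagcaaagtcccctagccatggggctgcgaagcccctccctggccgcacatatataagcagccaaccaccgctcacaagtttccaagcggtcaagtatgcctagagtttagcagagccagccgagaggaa
Gsc, chr12:104473187-104473486, minus strand: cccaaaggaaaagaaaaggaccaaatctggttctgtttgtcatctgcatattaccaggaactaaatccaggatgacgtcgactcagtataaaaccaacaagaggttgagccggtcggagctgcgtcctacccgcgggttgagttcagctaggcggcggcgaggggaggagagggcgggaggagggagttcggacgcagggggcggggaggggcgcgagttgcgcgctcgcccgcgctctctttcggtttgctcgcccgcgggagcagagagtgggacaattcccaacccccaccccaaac
Mesp1, chr7:79793541-79793840, minus strand: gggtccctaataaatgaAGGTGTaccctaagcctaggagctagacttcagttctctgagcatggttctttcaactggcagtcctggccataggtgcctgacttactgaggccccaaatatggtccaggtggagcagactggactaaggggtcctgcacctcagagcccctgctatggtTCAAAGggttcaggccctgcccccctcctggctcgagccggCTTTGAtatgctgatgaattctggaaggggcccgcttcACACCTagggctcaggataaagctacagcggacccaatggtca
The T promoter holds TCF/LEF letters at -234 and T-box letters at -14 from the start site. That of Mesp1 holds TCF/LEF letters at -72 and -31 and T-box letters at -233 and 7. Those of Eomes and Gsc hold neither. Of 32851 mouse promoters of this length, 31.2% hold the TCF/LEF letters, 13.7% the T-box letters and 4.59% both. None of the 4 promoters holds the bicoid-type homeobox letters TAATCC (7.06% of all promoters) or a p53 motif (8.36%) on either strand. The motifs do not overlap each other in these windows, and a match describes letters only.

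T had the largest rise of the 5 genes at the Wnt pulse. From 48 to 72 h its level in WT cells, taken as the mean of the 3 sorted WT populations, rose by 9.70 ± 0.16 on the log2 scale (SE, 833-fold, adjusted p = 3.6e-47). Mixl1 rose by 4.79 ± 0.12 (27.7-fold), Gsc by 3.65 ± 0.22 (12.5-fold), Mesp1 by 1.57 ± 0.33 (2.97-fold) and Eomes by 1.54 ± 0.09 (2.91-fold), each in all 3 replicates. Eomes had already risen between 0 and 48 h, by 0.79 ± 0.11, and Mixl1 by 0.73 ± 0.18 (adjusted p = 4.0e-04; 0.062 without replicate 3), while Gsc fell by 2.39 and Mesp1 by 0.90 (adjusted p = 0.046 for Mesp1). The fall of Mesp1 rests on 1 to 10 counts a library and did not pass the test with DESeq2 (adjusted p = 0.052) or without any single replicate (0.05 to 0.38). T did not pass the test over this interval (log2 change -0.48 ± 0.25, adjusted p = 0.077), and without replicate 2, which includes the library that stood apart, its change was 0.45 (adjusted p = 0.029). Without replicate 1 it was -0.79 (adjusted p = 0.019).

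The members then parted. In WT cells T fell by 0.68, 3.52 and 3.44 on the log2 scale over the successive intervals from 72 to 144 h. Mixl1 did not pass the test from 72 to 96 h (-0.15 ± 0.09, adjusted p = 0.13), though it did without replicate 2 (-0.40, adjusted p = 3.1e-04) or with no filter (0.026), and then fell by 5.19 and 1.94. Its mean number of normalized counts also moved apart between the WT populations from 72 to 96 h, from 2464 to 1495 in WT–emiRFP cells, from 1669 to 1578 in WT–mCherry cells of WT + WT gastruloids and from 1624 to 2058 in those of WT + p53KO gastruloids. Mesp1 rose by 2.73 ± 0.19 between 72 and 96 h and by 0.76 ± 0.13 between 96 and 120 h, and then fell by 3.99. The mean over WT populations hides a split between 96 and 120 h: its mean number of normalized counts moved from 58.3 to 50.9 in WT–emiRFP cells, from 43.7 to 68.5 in WT–mCherry cells of WT + WT gastruloids and from 54.2 to 192 in those of WT + p53KO gastruloids, where it was 189 at 120 h after subtraction of emiRFP RNA by H2bc14 and 179 by H2bc21. Eomes fell by 1.86 between 72 and 96 h and rose again between 96 and 120 h, by 0.81 ± 0.09 (adjusted p = 3.6e-11). Over the second interval its mean, in normalized counts, moved from 379 to 924 in WT–emiRFP cells. It moved from 318 to 552 in WT–mCherry cells of WT + WT gastruloids and from 234 to 300 in those of WT + p53KO gastruloids. Gsc fell by 1.88 between 72 and 96 h, with no further change that passed the test. In all, 20 of the 25 changes of members between consecutive time points passed the test in WT cells, 10 rises and 10 falls. Of all genes tested, 70.3% changed in WT cells from 0 to 48 h, 66.8% from 48 to 72 h, 58.7% from 72 to 96 h, 56.9% from 96 to 120 h and 55.5% from 120 to 144 h.

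**Figure D1:**
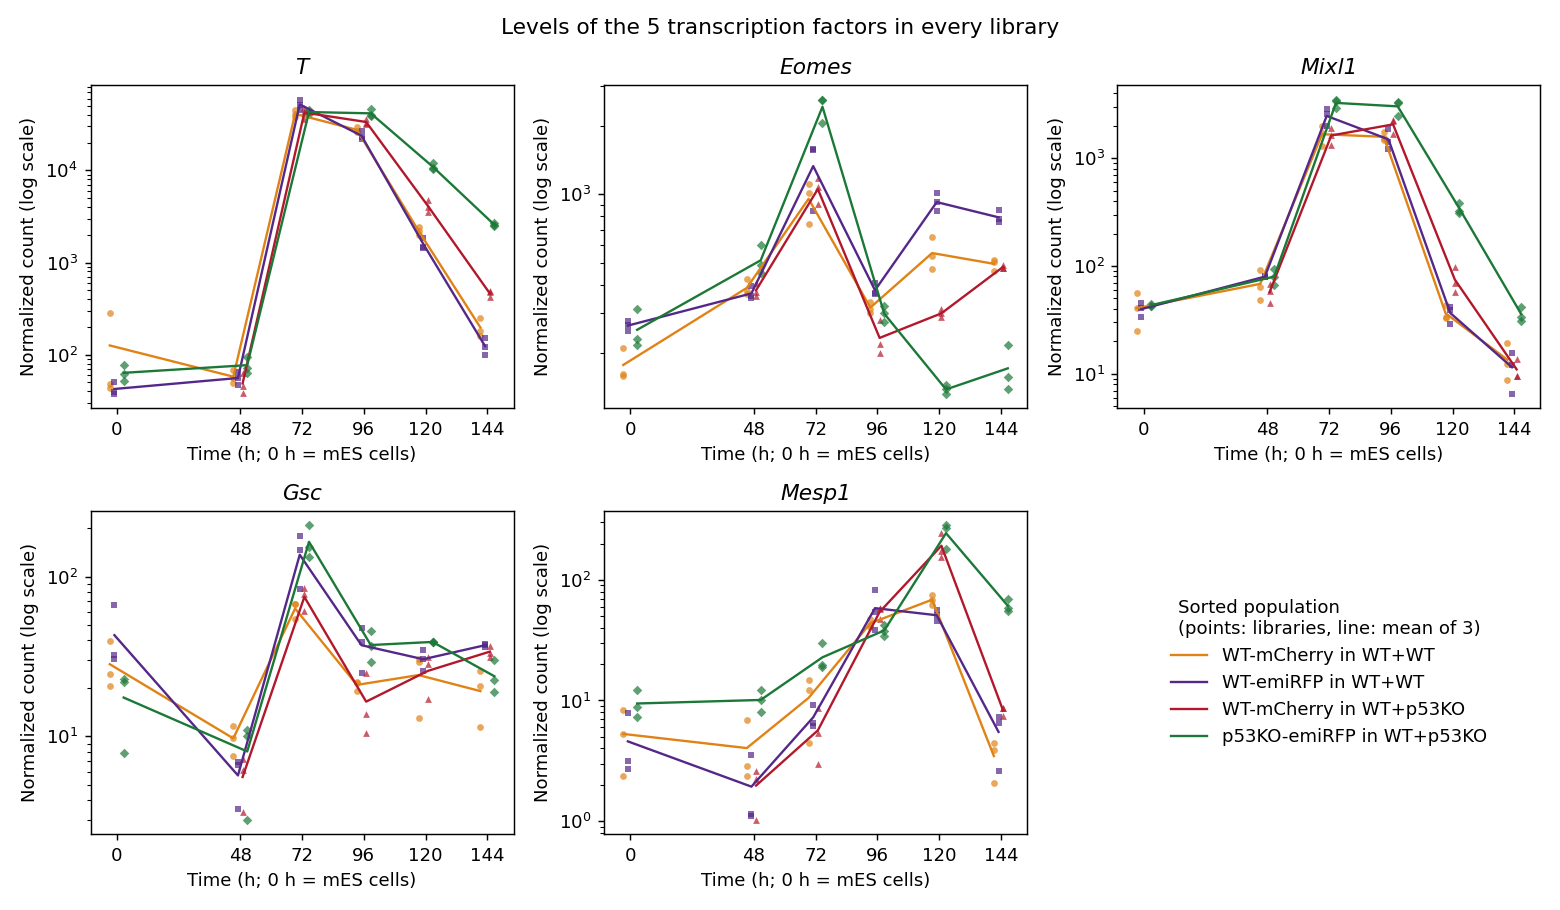
Normalized counts (log scale) of the 5 genes against time in hours, with a point per library and lines through the means of 3 replicates; 0 h is the mES clone that carries the same reporter and genotype. T, Mixl1 and Mesp1 stay highest in p53KO–emiRFP cells (green) at 120 and 144 h, where Eomes is lowest in the same cells.

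On the scale of normalized counts per kilobase of exons, which allows genes to be compared, T was the most abundant member at 72 h. In WT–mCherry cells of WT + WT gastruloids it was at 17685 ± 1645 (SD, n = 3), followed by Mixl1 at 728 ± 152, Eomes at 230 ± 46.2, Gsc at 49.8 ± 5.81 and Mesp1 at 8.25 ± 4.24, with no overlap between neighbours in this order. At 144 h in the same cells Eomes, at 119 ± 7.15, was above T, at 85.2 ± 21.1, and Mesp1 was at 2.71 ± 0.971. Over the series Gsc and Mesp1 had library means of 39.2 and 39.6 normalized counts against 14205 for T, which limits their precision at most times. The exception was Mesp1 at 120 h: per kilobase it was at 191 ± 42.5 in p53KO–emiRFP cells, where Mixl1 was at 148 ± 17.7 and Eomes at 33.5 ± 1.46, and at 150 ± 37.6 in WT–mCherry cells beside them, where Eomes was at 72.3 ± 3.09 and Mixl1 at 32.6 ± 8.90.

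T had its highest mean at 72 h in p53KO–emiRFP cells too, and its decline came later there. The level of T at 96 h was 96.8% of its 72 h mean in p53KO–emiRFP cells, 45.8% in WT–emiRFP cells, 67.1% in the WT–mCherry cells of WT + WT gastruloids and 79.1% in those of WT + p53KO gastruloids. At 120 h these values were 25.7%, 3.07%, 5.37% and 9.71%. Eomes went the other way: at 120 h it stood at 5.74% of its 72 h mean in p53KO–emiRFP cells and at 69.5% in WT–emiRFP cells. In p53KO–emiRFP cells 18 of the 25 changes between consecutive time points passed the test, 9 rises and 9 falls. The background in these cells was 59.5% of genes from 0 to 48 h, 46.4% from 48 to 72 h, 44.6% from 72 to 96 h, 35.0% from 96 to 120 h and 22.7% from 120 to 144 h. T did not pass the test from 72 to 96 h (-0.05 ± 0.18, adjusted p = 0.86) and fell by 1.92 and then 2.10 on the log2 scale over the later intervals. Eomes fell by 1.10 from 96 to 120 h, the interval over which it rose in WT cells. Mesp1 rose by 2.67 ± 0.22 over that interval.

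The difference between p53KO–emiRFP and WT–emiRFP cells was tested at each time point. Of the 30 pairs of a member and a time, 27 passed the filter on low counts (Mesp1 at 0 and 48 h and Gsc at 48 h did not), and 15 differed, 11 higher and 4 lower in p53KO–emiRFP cells. The background was 6.14% of genes in mES cells, 22.1% at 48 h, 29.1% at 72 h and 23.3% at 96 h, and it was 51.0% by 120 h and 65.4% by 144 h. In mES cells no member passed the edgeR test or that of DESeq2, and 1 of the 4 tested, Gsc, had an unadjusted p under 0.05. Gsc at 0 h, at 22.8, 7.92 and 21.8 normalized counts against 66.4, 30.3 and 32.3, gave a log2 difference of -1.33 ± 0.42 (adjusted p = 0.086), which passed with the replicate number as a block (adjusted p = 0.019) or with all libraries in the fit (0.0047).

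T was at 44984, 40746 and 42829 normalized counts in p53KO–emiRFP cells at 72 h and at 58403, 45502 and 51586 in WT–emiRFP cells. At 96 h the values were 39280, 45780 and 39375 against 22714, 26873 and 21593. At 120 h they were 10686, 12077 and 10225 against 1866, 1442 and 1461, and at 144 h 2674, 2527 and 2499 against 153, 120 and 99.1. The order thus turned between 72 and 96 h, and at each of these times the groups did not overlap. At 72 h the lower level in p53KO–emiRFP cells missed the threshold (-0.27 ± 0.10, adjusted p = 0.059) and passed it with the replicate block (adjusted p = 0.0043), with DESeq2 (0.028), with TMM (0.038) and without replicate 2 (0.043). The log2 difference was 0.81 ± 0.08 at 96 h (1.75-fold, adjusted p = 8.5e-06), 2.79 ± 0.13 at 120 h (6.92-fold, adjusted p = 8.4e-10) and 4.37 ± 0.17 at 144 h (20.7-fold, adjusted p = 2.3e-10), higher in 3 of 3 pairs each time. At 48 h, with 37 to 95 counts a library, T differed by 0.47 ± 0.21 (adjusted p = 0.13; 0.04 with the block).

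Eomes was higher in p53KO–emiRFP cells early and lower late. At 72 h it had 2604, 2603 and 2061 normalized counts against 1585, 1558 and 846 in WT–emiRFP cells, and at 48 h 450, 491 and 599 against 395, 358 and 350. At 120 h it had 133, 145 and 139 against 842, 923 and 1008, and at 144 h 139, 158 and 218 against 752, 775 and 849. All these groups were separate, with the WT–emiRFP library of replicate 3 at 72 h well below its fellows. The log2 differences were 0.49 ± 0.11 at 48 h (adjusted p = 0.0039; 0.066 without replicate 3), 0.87 ± 0.20 at 72 h (adjusted p = 0.0041), -2.73 ± 0.12 at 120 h (6.64-fold lower, adjusted p = 8.4e-10) and -2.21 ± 0.13 at 144 h (4.62-fold lower, adjusted p = 7.6e-09). At 96 h, where Eomes had 300, 324 and 275 against 363, 407 and 367, the difference of -0.34 ± 0.12 was just past the threshold (adjusted p = 0.046), and it was not past it with TMM normalization (0.06), with all libraries in the fit (0.14) or without any single replicate (0.065 to 0.18).

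Mixl1, a homeobox gene that Nodal signals induce in the streak, was higher in p53KO–emiRFP cells at 96, 120 and 144 h. At 96 h it was at 2458, 3347 and 3263 normalized counts in p53KO–emiRFP cells and at 1221, 1855 and 1409 in WT–emiRFP cells. At 120 h the values were 307, 385 and 327 against 42.1, 29.1 and 38.8, and at 144 h 31.0, 42.1 and 33.9 against 6.53, 15.7 and 12.2. The groups did not overlap at these times. The log2 difference was 1.01 ± 0.15 at 96 h (adjusted p = 2.3e-04), 3.21 ± 0.21 at 120 h (9.25-fold, adjusted p = 2.2e-08) and 1.64 ± 0.33 at 144 h (3.11-fold, adjusted p = 6.5e-04). At 72 h Mixl1 differed by 0.40 ± 0.16 (adjusted p = 0.069), past the threshold with the block (6.0e-05) and without replicate 2 (0.048) or 3 (0.031).

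At 144 h Mesp1 was higher and Gsc lower in p53KO–emiRFP cells. Mesp1 had 182, 283 and 267 normalized counts in p53KO–emiRFP cells at 120 h against 56.5, 45.5 and 50.8 in WT–emiRFP cells, and 58.6, 69.1 and 55.3 against 6.53, 7.32 and 2.61 at 144 h. It was 2.26 ± 0.21 higher at 120 h on the log2 scale (4.79-fold, adjusted p = 9.3e-07) and 3.48 ± 0.30 higher at 144 h (11.1-fold, adjusted p = 2.3e-07), where the WT–emiRFP libraries held 3 to 7 counts. At 72 h it differed by 1.61 ± 0.41 (adjusted p = 0.0088; 0.14 without replicate 1), at 29.8, 19.6 and 19.0 against 6.10, 9.12 and 6.54. At 96 h the groups overlapped (34.1 to 42.3 against 38.2 to 82.3), with -0.59 ± 0.24 (adjusted p = 0.089; 0.039 with the block). Gsc was lower in p53KO–emiRFP cells at 144 h, at 22.4, 19.0 and 30.1 against 37.3, 37.6 and 36.5 (-0.64 ± 0.26, adjusted p = 0.044), a difference not past the threshold with DESeq2 (0.065) or without any single replicate (0.068 to 0.19). From 48 to 120 h no Gsc difference passed the test.

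With the replicate number as a block, 20 pairs passed in place of 15, the 5 additional ones being T at 48 and 72 h, Mixl1 at 72 h, Mesp1 at 96 h and Gsc at 0 h. Markers of other cell types moved with these differences. At 120 h the summed normalized counts of 5 pluripotency genes (Pou5f1, Nanog, Sox2, Zfp42 and Esrrb) were 14667 to 15448 in p53KO–emiRFP cells and 62901 to 70233 in WT–emiRFP cells. Those of 4 presomitic and paraxial mesoderm genes (Tbx6, Msgn1, Meox1 and Tcf15) were 17301 to 22731 against 9466 to 13018, and those of 5 haematoendothelial genes (Kdr, Tal1, Etv2, Gata1 and Cdh5) 294 to 473 against 1509 to 1950. The 3 endoderm genes (Sox17, Foxa2 and Foxa1) summed to 163 to 255 against 200 to 369, overlapping between the groups. The sums of 4 germ cell genes (Prdm1, Prdm14, Dppa3 and Nanos3) were 884 to 1075 against 3102 to 3281, those of 4 neural genes (Sox1, Pax6, Olig2 and Neurog2) 1034 to 1201 against 878 to 987, and those of 4 formative epiblast genes (Fgf5, Otx2, Dnmt3b and Pou3f1) 10402 to 11336 against 9109 to 10772, the last overlapping between the groups. At 96 h, when T and Mixl1 were already higher in p53KO–emiRFP cells, the presomitic sum was lower there, at 9295 to 12708 against 16646 to 19488. The pluripotency sum was lower too (24323 to 26622 against 33867 to 38353). The formative epiblast sum (17579 to 20224 against 12645 to 14577) and the endoderm sum (385 to 527 against 171 to 276) were higher, and the other sums overlapped. At 144 h the presomitic sum was 16078 to 22117 against 2971 to 4005, the pluripotency sum 18004 to 23752 against 86606 to 96627, the germ cell sum 1840 to 1994 against 4983 to 5343, the neural sum 2864 to 3838 against 1384 to 1725, the haematoendothelial sum 822 to 942 against 967 to 1185 and the formative epiblast sum 6407 to 7489 against 9356 to 11616, and the endoderm sums overlapped (301 to 478 against 288 to 579). At 72 h, when Eomes was higher in p53KO–emiRFP cells, so was the formative epiblast sum (55659 to 62640 against 35390 to 44839). So were the germ cell (694 to 938 against 490 to 530), presomitic and haematoendothelial sums, and the others overlapped. At 48 h the presomitic (1048 to 1376 against 801 to 896) and germ cell sums (1090 to 1339 against 719 to 764) were higher. So were the neural, haematoendothelial and endoderm sums, and the others overlapped. No gene of these lists was without counts in these groups. The part of cell composition in the members' differences was not tested.

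**Figure D2:**
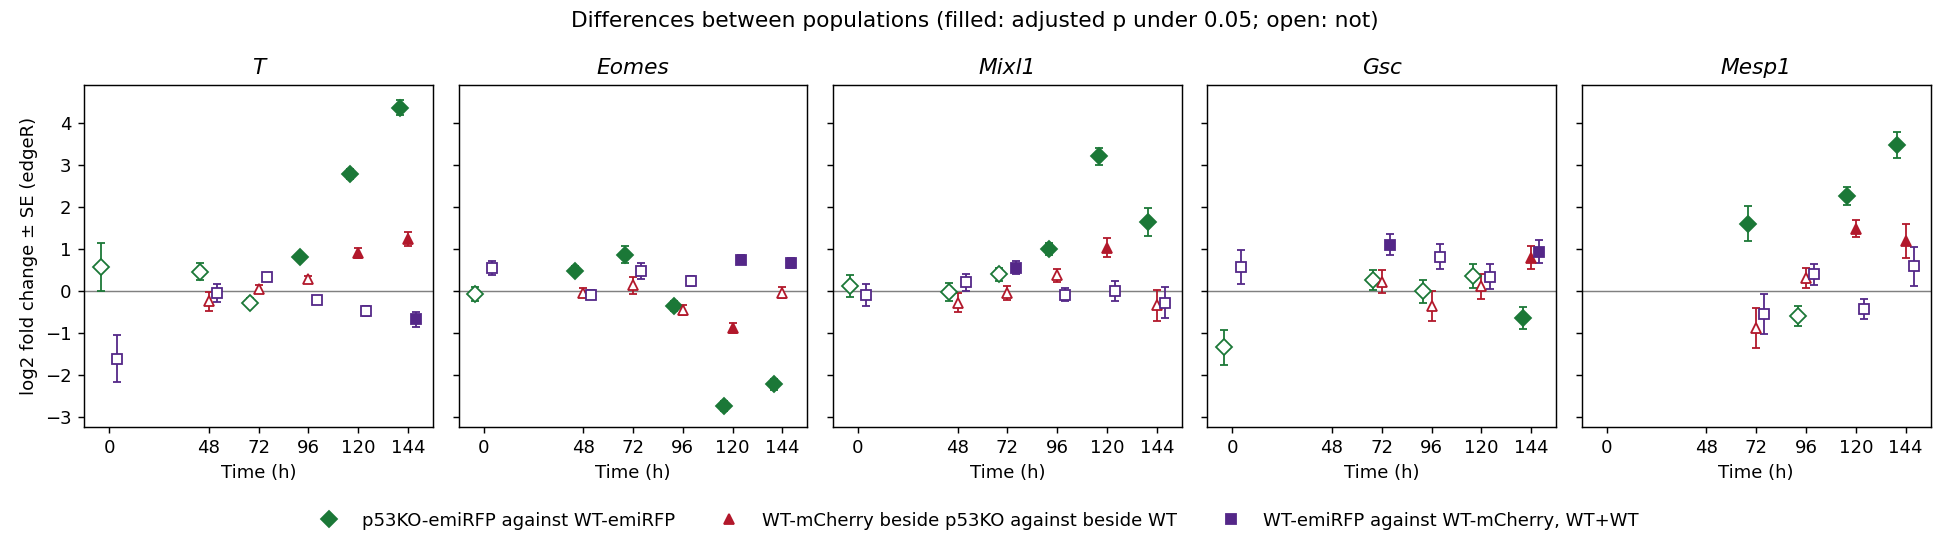
Log2 fold changes with standard errors (edgeR) against time in hours for p53KO–emiRFP against WT–emiRFP cells (green), WT–mCherry cells by neighbour, p53KO against WT (red) and WT–emiRFP against WT–mCherry cells (purple); filled symbols passed an adjusted p of 0.05. The green values of T climb from 0.81 at 96 h to 4.37 at 144 h while those of Eomes drop to -2.73 at 120 h.

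The change over each interval was then compared directly between the populations of p53KO–emiRFP and WT–emiRFP cells. Of 25 such differences 10 passed the test, 6 higher and 4 lower, all of them after 72 h. Before 72 h, 2 of 10 had an unadjusted p under 0.05 with edgeR (Eomes and Gsc from 0 to 48 h), and DESeq2 called none. With no filter on low counts, Eomes from 0 to 48 h (0.55, adjusted p = 0.043) and T from 48 to 72 h (-0.75, adjusted p = 2.5e-04) passed. The background was 5.99% of genes from 0 to 48 h, 1.76% from 48 to 72 h, 11.0% from 72 to 96 h, 30.8% from 96 to 120 h and 16.9% from 120 to 144 h. From 96 to 120 h the change of T was 1.98 ± 0.26 higher in p53KO–emiRFP cells on the log2 scale (adjusted p = 9.0e-09), that of Mixl1 2.20 ± 0.28 higher and that of Mesp1 2.85 ± 0.32 higher. That of Eomes was lower by 2.39 over this interval (log2 value -2.39 ± 0.23, adjusted p = 3.6e-12). From 72 to 96 h the change of T was 1.08 ± 0.25 higher (adjusted p = 0.0021; 0.064 with DESeq2), and those of Eomes (-1.21 ± 0.22) and Mesp1 (-2.21 ± 0.45) were lower. From 96 to 120 h the mean of Mesp1, in normalized counts, moved from 38.1 to 244 in p53KO–emiRFP cells and from 58.3 to 50.9 in WT–emiRFP cells. From 120 to 144 h T kept a higher change (1.58 ± 0.30, adjusted p = 5.8e-05), and the values of Mixl1 (-1.58 ± 0.51, adjusted p = 0.023) and Mesp1 (1.22 ± 0.42, adjusted p = 0.038) were less firm. Mesp1 declined in both populations over this interval, from 244 to 61.0 and from 50.9 to 5.49, so its value is that of a smaller decline. The value of Mixl1 missed the threshold without replicate 2 (0.15) or 3 (0.16), and that of Mesp1 without any single replicate (0.065 to 0.21).

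WT–mCherry cells were compared by neighbour, beside p53KO against beside WT cells. These libraries are not shared with the comparison above. The neighbours were seeded at 25 p53KO–emiRFP or 150 WT–emiRFP cells. Their genotype, clone and number therefore cannot be told apart here either. Of 25 pairs of a member and a time 23 passed the filter (Gsc and Mesp1 at 48 h did not), and 7 differed, 6 higher and 1 lower beside p53KO cells. All of them were at 120 or 144 h. At 48 and 72 h no tested member had an unadjusted p under 0.05, and at 96 h 3 had one with edgeR, of which DESeq2 called T (adjusted p = 0.028) and Eomes (adjusted p = 0.011). The background was 0.0736% of genes at 48 h, 0.559% at 72 h and 3.92% at 96 h, and it was 5.94% by 120 h and 25.6% by 144 h. With the replicate block 10 pairs passed, the additional ones being T (0.28, adjusted p = 7.2e-06), Eomes (-0.45, adjusted p = 9.1e-04) and Mixl1 (0.38, adjusted p = 1.6e-04) at 96 h.

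At 120 h T was at 4049, 4755 and 3510 normalized counts beside p53KO cells and at 2420, 1972 and 2203 beside WT cells. The values of Eomes were 288, 300 and 314 against 468, 649 and 537, and those of Mesp1 155, 246 and 175 against 68.3, 75.1 and 62.0. Each pair of groups was separate, with T and Mesp1 high and Eomes low beside p53KO cells. The log2 difference was 0.90 ± 0.12 for T (1.87-fold, adjusted p = 9.1e-04), -0.88 ± 0.12 for Eomes (1.84-fold lower, adjusted p = 7.7e-04) and 1.49 ± 0.20 for Mesp1 (2.81-fold, adjusted p = 0.0011). Mixl1, at 56.8, 96.9 and 70.3 against 43.1, 33.6 and 32.6, differed by 1.04 ± 0.22 (adjusted p = 0.013), which was not past the threshold without any single replicate (0.057 to 0.14). Markers of other cell types moved with these differences too: the haematoendothelial sum was 326 to 452 beside p53KO cells and 957 to 1080 beside WT cells, the neural sum 893 to 1089 against 1326 to 1349, the pluripotency sum 45021 to 46238 against 51064 to 63132 and the germ cell sum 2003 to 2300 against 2393 to 2823. The presomitic sum (13897 to 17705 against 10347 to 14304), the endoderm sum (322 to 593 against 194 to 433) and the formative epiblast sum (8954 to 9890 against 9783 to 11995) overlapped. The presomitic sum pools genes that need not move alike, and its members Tbx6 and Msgn1 were each higher beside p53KO cells, as given below. The part of these markers in the differences was not tested.

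At 144 h T was at 484, 419 and 488 normalized counts beside p53KO cells and at 252, 159 and 180 beside WT cells, a log2 difference of 1.24 ± 0.16 (2.36-fold, adjusted p = 2.0e-04). The groups remained separate. Mesp1, at 7.37, 8.61 and 8.71 against 4.42, 3.88 and 2.06, and Gsc, at 36.8, 31.6 and 33.3 against 11.5, 25.6 and 20.6, gave 1.20 ± 0.41 (adjusted p = 0.049) and 0.80 ± 0.27 (adjusted p = 0.04), and neither passed without any single replicate (0.13 to 0.24 and 0.052 to 0.3). Eomes, at 475, 473 and 491 against 461, 517 and 506, no longer differed past the threshold (-0.04 ± 0.13, adjusted p = 0.84). Beside p53KO cells at 144 h the haematoendothelial sum was 553 to 668 against 1221 to 1510, the neural sum 1515 to 2089 against 2670 to 3031 and the formative epiblast sum 6780 to 7142 against 8119 to 9716, while the pluripotency, presomitic, germ cell and endoderm sums overlapped in their ranges.

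RNA of emiRFP cells made up a larger mean share of the WT–mCherry libraries beside p53KO cells than of those beside WT cells at these times. Estimated from H2bc14, it made up 7.35%, 2.91% and 6.55% of the libraries beside p53KO cells at 120 h and 16.8%, 2.26% and 9.1% at 144 h. Beside WT cells it was 1.99%, 1.54% and 1.06% at 120 h and 2.01%, 0.0919% and 1.59% at 144 h. Among the libraries beside p53KO cells at 120 h, replicate 2 had the smallest share and the highest T, Mixl1 and Mesp1. When this share of the matching emiRFP library was subtracted, the differences of T (0.75, adjusted p = 0.0067), Eomes (-0.81, adjusted p = 0.0016) and Mesp1 (1.47, adjusted p = 0.0016) at 120 h passed the test, and that of Mixl1 did not (0.71, adjusted p = 0.17). At 144 h T (0.24, adjusted p = 0.72) and Mesp1 (0.12, adjusted p = 0.92) did not pass and Gsc did (0.86, adjusted p = 0.031). After this subtraction T at 144 h was at 43.3, 370 and 287 normalized counts beside p53KO cells and at 254, 159 and 182 beside WT cells, with replicate 1, which had the largest share, below all libraries of the other group and the other replicates above them. A larger estimate from H2bc21, up to 25% at 120 h, left Eomes (-0.69, adjusted p = 0.0094) and Mesp1 (1.38, adjusted p = 0.0039) at 120 h and Gsc at 144 h (0.94, adjusted p = 0.026) past the threshold but not T at 120 h (0.37, adjusted p = 0.51). As counted at 120 h, the neighbour differences of T, Eomes and Mesp1 had the sign of their p53KO differences. That of Gsc at 144 h had the opposite sign, 0.80 by neighbour and -0.64 in p53KO–emiRFP cells. The cause of these directions was not tested.

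**Figure D3:**
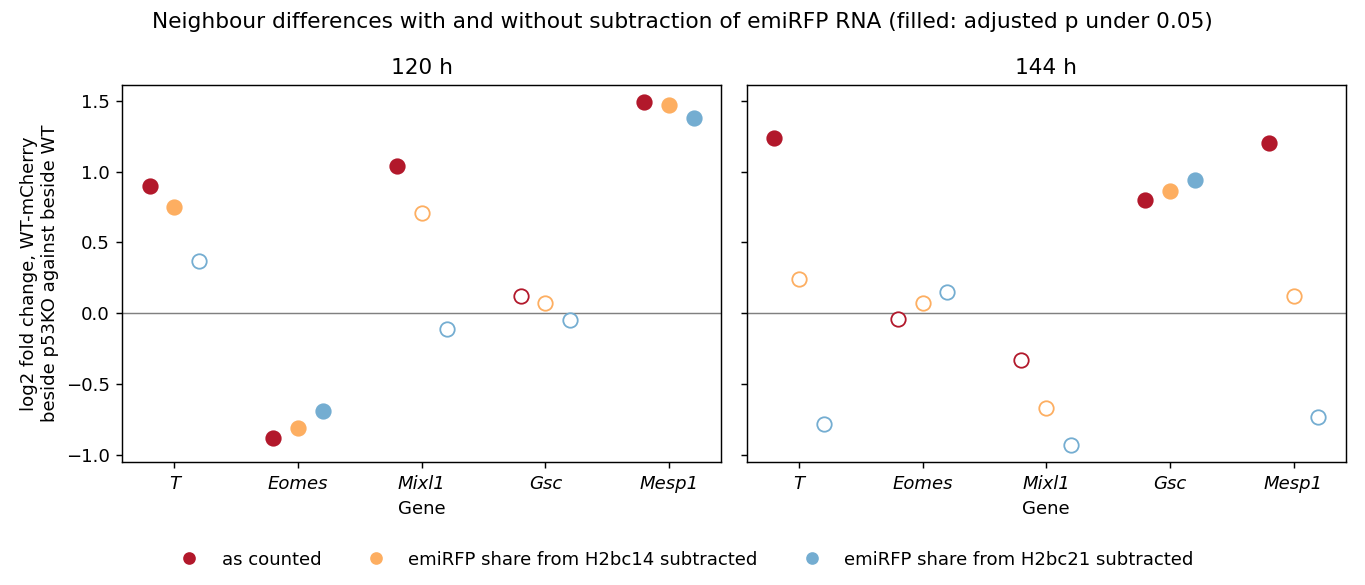
Log2 fold changes of the 5 genes (horizontal axis) in WT–mCherry cells by neighbour, p53KO against WT, at 120 and 144 h, as counted (red) and after subtraction of emiRFP RNA estimated from H2bc14 (orange) or H2bc21 (blue); filled circles passed an adjusted p of 0.05. Eomes and Mesp1 at 120 h keep their direction and remain filled in all 3 versions, whereas T at 144 h drops from 1.24 to 0.24 and -0.78.

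The p53KO difference was then set against the neighbour difference in a single contrast, in which all 4 sorted populations of a time enter. The neighbour difference enters as counted, with the emiRFP RNA given above. Subtraction by H2bc14 took that of T at 144 h from 1.24 to 0.24. Of 23 tested pairs 11 passed, 8 higher and 3 lower, against a background of 10.9% of genes at 48 h, 20.5% at 72 h and 13.0% at 96 h, which was 33.1% by 120 h and 62.1% by 144 h. At 144 h the contrast was 3.14 ± 0.23 for T (adjusted p = 6.5e-08), -2.16 ± 0.18 for Eomes, 1.96 ± 0.50 for Mixl1, -1.44 ± 0.37 for Gsc (adjusted p = 0.004; 0.057 without replicate 1) and 2.28 ± 0.57 for Mesp1. At 120 h it was 1.89 ± 0.17 for T, -1.85 ± 0.17 for Eomes and 2.17 ± 0.30 for Mixl1, and 0.77 ± 0.30 for Mesp1 (adjusted p = 0.061; 0.042 with all libraries in the fit), whose levels in p53KO–emiRFP cells and in their WT–mCherry neighbours overlapped (182 to 283 and 155 to 246 normalized counts). With the replicate block 18 pairs passed in place of 11, among them Eomes (0.74, adjusted p = 9.3e-04; also past the threshold without replicate 3, at 0.0014) and Mixl1 (0.45, adjusted p = 9.3e-04) at 72 h.

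The 2 WT clones of WT + WT gastruloids give the size of differences with no p53 mutation. WT–emiRFP libraries also serve the p53KO comparison and WT–mCherry libraries the neighbour comparison. Of 27 tested pairs 6 differed, 5 higher and 1 lower in WT–emiRFP cells. The background was 11.1% of genes in mES cells, 8.90% at 48 h, 7.64% at 72 h and 2.15% at 96 h, and it was 1.22% by 120 h and 23.8% by 144 h. Eomes was higher in WT–emiRFP cells, by 0.75 ± 0.11 at 120 h (1.68-fold, adjusted p = 0.0047) and 0.68 ± 0.12 at 144 h (1.6-fold, adjusted p = 0.0016), and T was lower, by a log2 value of -0.67 ± 0.17, at 144 h (adjusted p = 0.013). Gsc was higher at 72 h (1.11 ± 0.25, adjusted p = 0.015) and 144 h (0.94 ± 0.27, adjusted p = 0.021), and Mixl1 at 72 h (0.56 ± 0.16, adjusted p = 0.046). Eomes at 144 h passed without any single replicate. Without replicate 1 the adjusted p was 0.2 for Eomes at 120 h, 0.19 for Gsc at 72 h, 0.18 for Gsc at 144 h and 0.34 for Mixl1, without replicate 2 it was 0.25 for Gsc at 72 h, and without replicate 3 it was 0.22 for Eomes at 120 h, 0.11 for Gsc at 144 h and 0.11 for T. With the block, T at 96 h (-0.21, adjusted p = 2.3e-04) and 120 h (-0.47, adjusted p = 0.006) and Eomes at 96 h (0.25, adjusted p = 0.035) also passed. The order of T among the 4 populations at 144 h was therefore p53KO–emiRFP, WT–mCherry beside p53KO, WT–mCherry beside WT and WT–emiRFP cells, with no overlap between neighbours in the order of levels as counted, and that of Eomes was WT–emiRFP, both WT–mCherry populations, which overlapped, and p53KO–emiRFP cells. After the subtraction by H2bc14 the 2 WT–mCherry populations overlapped for T as well, and with H2bc21 their difference was -0.78. Marker sums also differed between the WT clones. At 120 h the haematoendothelial sum was 1509 to 1950 in WT–emiRFP and 957 to 1080 in WT–mCherry cells. The neural sum was 878 to 987 against 1326 to 1349 and the germ cell sum 3102 to 3281 against 2393 to 2823. The other sums overlapped. At 144 h only the endoderm and formative epiblast sums overlapped. The part of cell composition was not tested.

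The ratio of T to Eomes within a library does not depend on the scaling between libraries. On the log2 scale of normalized counts per kilobase it rose in all sorted populations from between -2.14 and -1.88 at 48 h to between 6.81 and 8.02 at 96 h. At 72 h it was 4.95, 4.81 and 5.22 in p53KO–emiRFP cells and 6.05, 5.71 and 6.77 in WT–emiRFP cells, with no overlap. At 120 h it was 7.15 ± 0.10 (SD, n = 3) in p53KO–emiRFP cells, 4.61 ± 0.26 in WT–mCherry cells beside them, 2.85 ± 0.39 in those beside WT cells and 1.62 ± 0.33 in WT–emiRFP cells. At 144 h the means were 4.77, 0.79, -0.51 and -1.85 in the same order. In an alternative chosen after seeing the data, the ratio was also taken after subtraction by H2bc14. In WT–mCherry cells beside p53KO cells it was then 4.40 ± 0.34 at 120 h, and at 144 h it was -2.80, 0.47 and -0.01 against 0.00, -0.86 and -0.62 in those of WT + WT gastruloids, so that these groups overlapped. T transcripts outnumbered those of Eomes 27.3-fold in p53KO–emiRFP cells at 144 h, per kilobase, and the mean of Eomes exceeded that of T in both WT + WT populations. The ratio of Mixl1 to Eomes at 120 h was 2.14 ± 0.11 in p53KO–emiRFP cells and below 0 in the other populations (-1.19 to -3.81).

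**Figure D4:**
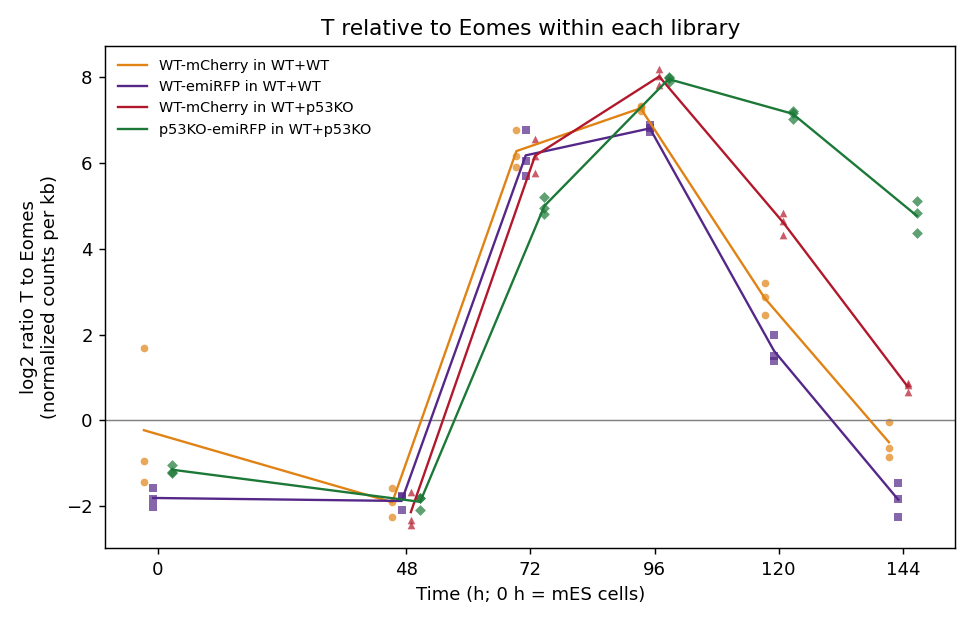
Log2 ratio of T to Eomes (normalized counts per kilobase) in each library against time in hours, with lines through the means of 3 replicates per sorted population and 0 h showing the mES clones. The populations lie close together at 48 h and spread at 120 h from 1.62 in WT–emiRFP to 7.15 in p53KO–emiRFP cells.

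Other genes of the pathway were read from 4 lists. Of 13 genes of the posterior streak and presomitic mesoderm, 13 had higher counts at 120 h in the p53KO–emiRFP cells (median log2 difference 2.35, 0.05 over all genes tested), set against WT–emiRFP cells, and 12 at 144 h (median 3.61), where 51.0% and 65.4% of all genes differed in either direction. Tbx6, a T-box factor of presomitic mesoderm, was at 6130 against 418 normalized counts at 120 h (3.88 ± 0.18) and Msgn1, a bHLH factor of that tissue, at 1700 against 66.1 (4.69 ± 0.25). At 96 h, when T was already higher, 3 of the 13 were higher and 6 lower, against 23.3% of all genes: Evx1 was higher (0.82 ± 0.08) and Msgn1 lower (-0.80 ± 0.11). At 144 h Cdx4, a caudal homeobox factor, was at 4510 against 131 (5.11 ± 0.16).

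Of 8 upstream signals, 2 were higher and 6 lower in p53KO–emiRFP cells at both 120 and 144 h, against the 51.0% and 65.4% of all genes that differed. The higher ones were Wnt3a (3.37 ± 0.17 at 120 h, 2.78 ± 0.19 at 144 h) and Fgf8 (2.62 ± 0.15 and 2.99 ± 0.22), ligands of the late streak and tail bud. Nodal, a ligand that induces Eomes and Gsc in the embryo, was lower at every time from 0 h (-0.89 ± 0.12) to 144 h (-2.54 ± 0.11). Its level at 72 h, when Eomes was higher in p53KO–emiRFP cells, was 4310 against 6610 normalized counts. Wnt3, the early Wnt ligand of the streak, was lower at 48 h (58.3 against 181), 72 h (1290 against 2340) and 96 h (203 against 393; adjusted p = 0.016, and 0.25 without replicate 1). Of 8 genes that respond to Wnt or Nodal, 5 were higher and 2 lower at 120 h, and of the 8 tested genes of the anterior streak, endoderm and node 3 were higher and 2 lower, both with 51.0% of all genes as background; the share of the anterior list lies near it. The Wnt target Sp5 was higher (2.16 ± 0.12 at 120 h, 3.68 ± 0.18 at 144 h), and the Nodal targets Lefty1 (-2.30 ± 0.13) and Lefty2 (-2.14 ± 0.15) were lower at 144 h. In the anterior list Lhx1 (1.66 ± 0.16) and Chrd (1.52 ± 0.14) were higher and Otx2 (-1.49 ± 0.10) was lower at 120 h.

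In WT–mCherry cells beside p53KO cells, 9 of the 13 posterior genes were higher at 120 h (median 0.92) and 11 higher and 1 lower at 144 h (median 1.40), against 5.94% and 25.6% of all genes, in libraries that held the emiRFP RNA given above. Msgn1 was at 503 against 140 normalized counts at 120 h (1.85 ± 0.22) and Tbx6 at 2290 against 778 (1.56 ± 0.16). Both passed after subtraction by H2bc14 (Msgn1 1.62, adjusted p = 0.0022, and Tbx6 1.40, adjusted p = 0.0013), and neither did with H2bc21 (Msgn1 0.97, adjusted p = 0.35, and Tbx6 1.00, adjusted p = 0.084). At 144 h the subtraction by H2bc14 took the difference of Hes7 from 2.49 to 0.26 (adjusted p = 0.81), and that of Nkx1-2 (1.16, adjusted p = 0.012) and that of Cdx2 (1.09, adjusted p = 3.7e-04) passed. With H2bc21 none of these passed (Hes7 -0.28, Nkx1-2 0.43 and Cdx2 0.32, adjusted p = 0.53 to 0.83). Of the 8 Wnt or Nodal response genes, 5 were higher and 3 lower beside p53KO cells at 120 h. At 144 h 2 were higher and 3 lower, against 5.94% and 25.6% of all genes at these times. Among the lower ones Lefty1 and Lefty2 stood at -1.67 ± 0.12 and -1.15 ± 0.12 at 120 h, when Eomes was lower too. At 144 h they stood at -1.09 ± 0.13 and -1.14 ± 0.14, when Eomes did not differ past the threshold.

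Across the means of the 23 groups, on the scale of log2(normalized count + 1), the genes with patterns most like T among 14077 genes were Mcc, Zfp964, Crot, Evx1 and Evx1os, with Pearson correlations of 0.976 to 0.971. For Mixl1 they were Ndufaf4 (0.979), 1700003E16Rik, Alox15, Tasp1 and Naa60, and for Mesp1 Npbwr1 (0.923), Hoxd1, Bbs12, Kcnk3 and Hes7. For Gsc they were Wnt11 (0.901), Pnpla3, Itch, B4galt5 and Rreb1, and for Eomes Rnft1 (0.877), Fam110c, Kctd21, Coro1b and Mpp7. Among the members T and Mixl1 were the most alike (0.84), and the value for Eomes and Mesp1 was -0.26. T and Eomes correlated at 0.29. These values describe 23 groups that share time points, clones and the scaling of the libraries.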

How the data were processed

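Per the labels and the study's methods, the authors trimmed stranded poly(A) RNA reads with Trim Galore 0.6.7, aligned them with STAR 2.7.11b to GRCm38.p6 and counted reads per Gencode gene; the strand setting of the counting is not given in the sources used here. The deposited table holds raw counts of 55367 symbols in 69 libraries of 26722541 to 72981570 counts. All its columns were used.

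Counts were divided by median-of-ratios size factors over all libraries. Groups were compared with the quasi-likelihood test of edgeR 4.0.16 (R 4.3.3) after filterByExpr, fitted to the 12 libraries of each time (9 at 0 h) or, for changes over time, to all 69. Benjamini-Hochberg adjustment ran over all genes tested, with a threshold of 0.05. Standard errors are the absolute log2 fold change over the root of F. Alternatives were TMM, no filter, DESeq2 1.42.0, each replicate left out, other sets of libraries in the fit, the replicate number as a block, and subtraction of emiRFP RNA estimated from H2bc14 or H2bc21. Only the fit at 120 h and that to all 69 libraries were first tested on simulated counts. The simulated contrast was p53KO–emiRFP against WT–emiRFP cells at 120 h.

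Replicate numbers come from the labels. Over 14078 genes, libraries of the same number deviated from their group means with a correlation of 0.118 or more in every pair of p53KO–emiRFP and WT–emiRFP groups, which were taken as paired. So were the WT–mCherry groups by neighbour, except at 120 h (lowest 0.0717), and the WT clones, except at 0 h (0.0865) and 72 h (0.0377). In the fits over time only the number is shared. The reported tests fitted the group alone, and the pairing entered a test only where the block is named.

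The 5 genes and the lists of other genes were chosen with earlier results of these data known. Named list genes are the up to 3 per list and comparison with the largest change past the threshold and 1 direction in all 3 pairs. Genes of similar pattern had a mean of at least 50 normalized counts, and a pseudocount of 1 was used. The annotation was Gencode on GRCm38, in which 96.4% of the symbols were found.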

Additional observations from a re-analysis of the deposited data

Results flagged for a closer look

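These results are given here because a test of the difference itself found that the effect was not the same in 2 groups. In the contrast of the p53KO difference with the neighbour difference, on the log2 scale, T stood at 0.52 (96 h; adjusted p = 0.12 without replicate 1 and 0.21 with all libraries in the fit), 1.89 (120 h) and 3.14 (144 h). Eomes stood at 0.52 (48 h), -1.85 (120 h) and -2.16 (144 h), so its sign turned between the early and the late times. The 48 h value of Eomes missed the threshold without any single replicate (adjusted p = 0.069 to 0.23), with TMM (0.051) and with all libraries in the fit (0.19). Mixl1 stood at 2.17 (120 h) and 1.96 (144 h), Gsc at -1.44 (144 h) and Mesp1 at 2.49 (72 h; adjusted p = 0.23 without replicate 1 and 0.088 without replicate 3) and 2.28 (144 h).

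In the contrast of the change over an interval between p53KO–emiRFP and WT–emiRFP cells, T stood at 1.08 (72 to 96 h), 1.98 (96 to 120 h) and 1.58 (120 to 144 h), and Eomes at -1.21 (72 to 96 h) and -2.39 (96 to 120 h). Mixl1 stood at 2.20 (96 to 120 h) and -1.58 (120 to 144 h), and Mesp1 at -2.21 (72 to 96 h), 2.85 (96 to 120 h) and 1.22 (120 to 144 h). In both contrasts the WT–emiRFP libraries are shared. The neighbour differences that enter the contrast with the p53KO difference are as counted, with emiRFP RNA in them.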

How the results depend on the processing

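Over all named genes and settings, 2080 values kept their side of the threshold, 76 gained a call, 142 lost one and 7 reversed. Values past the threshold neither as reported nor in the alternative count among the 2080 whatever their direction. The reversed values were those of T (-0.78), Mesp1 (-0.73), Hes7 (-0.28) and Wnt3a (-0.76) at 144 h and Mixl1 (-0.11) at 120 h in WT–mCherry cells by neighbour after subtraction by H2bc21, that of Wnt3a at 144 h after subtraction by H2bc14 (-0.10), and that of T in WT cells from 0 to 48 h without replicate 2 (0.45, the highest of its values without 1 replicate, the lowest being -0.79). The cause was not tested. The number of pairs of a member and a time past the threshold in WT–mCherry cells by neighbour was 7 as reported, 4 with only the groups compared in the fit, 4 with either subtraction and 4 when any 1 replicate was left out. With H2bc21, 1 of the 4 was Eomes at 96 h (-0.46, adjusted p = 0.049), which is not among the 7. Between the WT clones the number was 6 as reported, 12 with no filter, 12 with the replicate block and 2 with only the groups compared. For the contrast of the p53KO and neighbour differences it was 11 as reported, 18 with no filter, 18 with the block and 7 to 10 without 1 replicate. The counts for p53KO–emiRFP against WT–emiRFP cells (12 to 20) and for changes over time stayed within 1.5 times their reported values. Where the numbers were not taken as pairs, the block added Eomes (0.55) at 0 h and T (0.34) and Eomes (0.46) at 72 h between the WT clones and, at 120 h, Mesp1 (0.77) in the contrast of differences. Over time it added Mixl1 from 72 to 96 h (0.61) and removed Mesp1 from 0 to 48 h in WT cells. Low counts of Gsc and, at most times, Mesp1 limit their values, and 3 replicates limit all.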
